A study of Sus scrofa with 12 samples.

Results

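The response of the pig liver to cold that Bama and Hezuo pigs had in common was measured as the mean of 2 within-breed differences, cold minus room temperature in Bama pigs and cold minus room temperature in Hezuo pigs. Of 13532 genes tested, 526 (3.89%) were called on that mean, and 514 of them (3.8%) moved the same way in both breeds. These 514 genes, 255 higher (1.88%) and 259 lower (1.91%) in the cold, are described here, together with 17 circular RNAs chosen in the same way among 9032. A gene was called where its Benjamini-Hochberg adjusted p over all genes, from edgeR's quasi-likelihood test on all 12 libraries, was below 0.05.

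The libraries came from the livers of 12 pigs, 3 per group. Bama pigs, a miniature breed, and Hezuo pigs, a plateau breed, were each kept at 23 ± 2 °C (room temperature) or at -15 ± 2 °C (cold), and all livers were taken on day 15. The labels give neither age nor sex of the pigs and no hour of sampling, and each pig has its own number within its group. All groups were given a balanced diet per the labels, and the amount eaten is not given.

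The liver supplies much of the fuel that other tissues burn to make heat. It oxidises fatty acids in its mitochondria, turns amino acids into glucose and urea, makes bile acids from cholesterol, and secretes most proteins of the blood plasma, albumin above all. It also takes part in hormone signalling, as the main source of circulating insulin-like growth factor and its carrier proteins, and holds a circadian clock in which PER proteins repress the activators CLOCK and BMAL1.

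Gene counts totalled between 20041270 and 30188033 per library and back-splice counts between 39117 and 75616. Replicates of a group correlated at r between 0.963 and 0.977 across genes. The hepatocyte genes ALB, TF and FGB ranked within the first 23 genes by FPKM (fragments per kilobase of gene and library size) in every library, as in liver. Albumin reads took between 1.53% and 12% of a library, with the lowest share in Bama cold replicate 1. RNA of the Y-linked gene DDX3Y was at 95.2 and 124 CPM in Bama cold replicates 1 and 3, at 0 in Bama cold replicate 2, at 0.0629, 0.111 and 0 CPM in the Bama room temperature libraries, and between 60.4 and 98.2 CPM in all 6 Hezuo libraries. CPM here are scaled for library composition. So in Bama pigs Y-linked RNA was present in the cold group only, in 2 of its 3 libraries, and Bama cold replicate 2 is the 1 cold library there that matches the room temperature ones in it. All Hezuo libraries were alike in it.

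This bears on every call below. With Y-linked RNA as a covariate 6 genes were called, and without the 2 Bama cold libraries that hold it 5 were called (IGFALS, CAMK2N1, SLC25A33, GLTPD2 and 1 gene without a symbol). Both settings leave the Bama cold response to Bama cold replicate 2 alone, so they are not 2 separate checks. The part of this loss of replicates in the lost calls was not tested. The values moved less than the calls did. Without those 2 libraries, 512 of the 514 genes kept the sign of their mean response. The median ratio of their log2 fold change to that over all libraries was 0.908. The 514 were chosen on all 12 libraries, and this fit reuses the remaining ones, all Hezuo libraries among them. Kept signs and a ratio near 1 were thus favoured by the choice and do not show that Y-linked RNA matters little. Of the 106 called genes that are named here by a fixed rule, 33 kept their call in each of 12 fits that left out 1 library. Of the 514, 3 are rows whose reads followed Y-linked RNA from library to library, DDX3Y and EIF1AY among them, and they are not described further.

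In 164 of the 514 genes the response of 1 breed was more than 2 times that of the other. The higher genes had a median log2 fold change of 0.65 in Bama and 0.60 in Hezuo pigs, and the lower ones -0.82 and -0.69. The cold and room temperature libraries did not overlap in either breed in 340 of the 514, against 691 of all 13532 genes (5.11%, with 2.42% higher and 2.69% lower in the cold). Both within-breed p-values were below 0.05, unadjusted, in 359 of the 514, against 533 of all genes (3.94%), and the mean of both breeds was itself used to choose the 514. Taken alone, Bama pigs gave a call for 105 of the 514, against 125 of all 13532 genes. Hezuo pigs alone gave a call for 25, against 38 of all genes, and 387 were called in neither breed alone. The smaller response was a median of 0.633 times the larger one, with the larger one in Bama for 324 genes and in Hezuo for 190. None of the 514 was called for a difference between the breeds, and 93 had an unadjusted p below 0.05 for it.

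A stricter question is whether a gene changed in each breed. It was asked with the larger of the 2 within-breed p-values, adjusted over all genes. By edgeR's quasi-likelihood test 0 of 13532 genes (0.0%) passed it. The lowest values were those of SPATA20 (unadjusted p = 4.7e-05), PSMD14 (4.8e-05) and GLTPD2 (7.3e-05), with adjusted p from 0.328 to 0.329. By DESeq2 22 genes passed it. Across all 13532 genes, 64.2% had the same sign in both breeds, 4134 of them higher and 4552 lower in the cold. The 2 responses, which share no library, correlated over genes at Pearson's r = 0.27 and Spearman's rho = 0.35, where genes are not independent replicates.

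**Figure D1:**
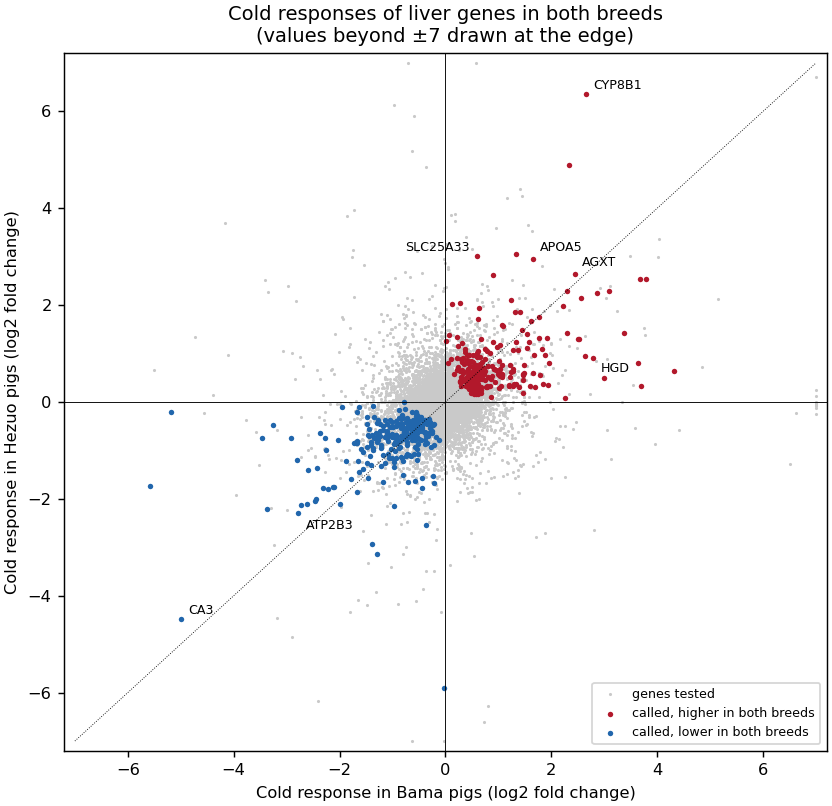
Log2 fold change in the cold in Bama pigs (horizontal axis) and in Hezuo pigs (vertical axis) for each gene tested, with the called genes of the same sign in colour and the rows with Y-linked reads left out. The coloured genes lie at the upper right and lower left, and CA3 sits near the dotted line of equal response at -4.99 and -4.48.

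The genes with the largest rises, among those without overlap in either breed, included AGXT, PERM1, GLTPD2 and HIGD1A. AGXT, the peroxisomal enzyme that turns glyoxylate into glycine, was at 19.2, 69.9 and 17.1 CPM in Bama room temperature libraries and at 253, 187 and 135 CPM in Bama cold ones. In Hezuo pigs it was at 39.7, 35.3 and 51.4 CPM at room temperature and at 136, 403 and 253 CPM in the cold. All 6 cold libraries lay above all 6 room temperature ones. The response was 2.44 in Bama and 2.65 in Hezuo, and the mean log2 fold change was 2.54 ± 0.40 (SE; adjusted p = 0.0128, edgeR quasi-likelihood), or 2.53 without the 2 Bama cold libraries with Y-linked RNA.

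GLTPD2, a glycolipid transfer domain protein, stood at 2.45, 2.93 and 2.18 CPM against 8.71, 11.0 and 24.9 CPM in Bama, and at 4.70, 2.86 and 4.64 CPM against 18.4, 20.3 and 15.3 CPM in Hezuo pigs. Every cold library was above every room temperature library. It rose by 2.35 ± 0.26 (adjusted p = 0.0025, edgeR quasi-likelihood). PERM1, a regulator of mitochondrial genes that acts with the ESRR receptors, stood at 2.48, 1.41 and 2.11 CPM against 9.05, 10.1 and 24.6 CPM in Bama, and at 3.84, 0.862 and 3.64 CPM against 13.2, 18 and 8.20 CPM in Hezuo pigs. Its groups did not overlap either, and it rose by 2.55 ± 0.39.

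HIGD1A, a small protein of the inner mitochondrial membrane, was at 35.5, 29.1 and 26.2 CPM against 69.7, 67.0 and 90.3 CPM in Bama, and at 40.4, 20.6 and 35.5 CPM against 85.1, 83.8 and 182 CPM in Hezuo pigs. The cold libraries were higher in both, and the rise was 1.59 ± 0.23 (adjusted p = 0.00924, edgeR quasi-likelihood). TTPAL, a lipid-binding protein of the tocopherol transfer family, rose by 2.10 ± 0.31, with 2.22 in Bama and 1.98 in Hezuo pigs. GK, which phosphorylates glycerol, rose by 1.76 ± 0.35, with 1.76 and 1.75. P2RY2, a receptor for extracellular nucleotides, rose by 1.90 ± 0.24, with 2.50 and 1.31. ACKR2, a scavenging chemokine receptor, rose by 1.66 ± 0.33, and the repair gene XRCC2 by 1.47 ± 0.27.

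Other large rises were of unequal size in the breeds, though no difference between them was called. CYP8B1, which sets the ratio of cholic acid in bile, was near the floor in Bama pigs, at 0.314, 0.297 and 0 CPM at room temperature and 0.667, 0.431 and 2.66 CPM in the cold. In Hezuo pigs it went from 2.37, 0.680 and 0.287 CPM to 35.0, 60.6 and 183 CPM. It is higher in every cold library of its breed, yet its mean response of 4.50 ± 0.75 rests mainly on Hezuo pigs (6.35, against 2.65 in Bama), and the mean was 3.72 without the 2 Bama cold libraries with Y-linked RNA. APOA5, an apolipoprotein that speeds the clearance of plasma triglyceride, rose by 2.30 ± 0.41, with 1.65 in Bama and 2.96 in Hezuo pigs. HGD, an enzyme of tyrosine breakdown, showed the opposite order, with 2.79 in Bama and 0.91 in Hezuo pigs. DOK7, the vitamin B12 binder TCN1 and SLC1A2, treated with the amino acid genes below, complete the 15 largest rises, and DOK7 and TCN1 kept their calls in 2 and 1 of 12 fits that each left out 1 library.

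The largest fall was in CA3, a carbonic anhydrase abundant in liver and muscle. It went from 2.73, 87.7 and 52.6 CPM to 0.0834, 2.48 and 1.84 CPM in Bama pigs. In Hezuo pigs it went from 250, 239 and 321 CPM to 16.0, 11.3 and 9.10 CPM. The groups did not overlap in either breed, though Bama room temperature replicate 1 lay just above the cold libraries of its breed. The mean log2 fold change was -4.73 ± 0.75 (adjusted p = 0.0137, edgeR quasi-likelihood), and -4.37 without the 2 Bama cold libraries with Y-linked RNA. At room temperature the level itself was higher in Hezuo than in Bama pigs in all 3 libraries.

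SPATA20 was the gene with the lowest p in the stricter question on both breeds. It stood at 11.6, 8.01 and 11.0 CPM against 3.63, 3.67 and 3.12 CPM in Bama, and at 10.4, 11.7 and 9.71 CPM against 5.23, 4.05 and 2.90 CPM in Hezuo pigs. The 4 groups thus lay at 2 levels, a higher one at room temperature and a lower one in the cold. It fell by 1.47 ± 0.16 on the log2 scale (adjusted p = 0.00216, edgeR quasi-likelihood), with -1.56 in Bama and -1.39 in Hezuo pigs. Other falls of like size in both breeds were those of ATP2B3, a plasma membrane calcium pump (-2.78 and -2.29), ANGPTL7 (-2.73 and -2.13), DKK1, an inhibitor of WNT signalling (-2.62 and -2.11), GIPC2 (-1.99 and -2.11) and RRAGD, a GTPase that signals amino acid supply to mTORC1 (-1.67 and -1.85). ASAH2, a neutral ceramidase, fell by 2.26 ± 0.53 and kept its call in 2 of 12 leave-one-out fits. SLC26A8 fell more in Bama (-2.91) than in Hezuo pigs (-0.75), and MEGF6 the other way (-0.98 and -2.14); neither difference between the breeds was called. The rest of the 15 largest falls, CLEC18C, COL6A6, NREP, PRAP1, DMP1 and CPZ, lay between -2.79 and -1.93.

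**Figure D2:**
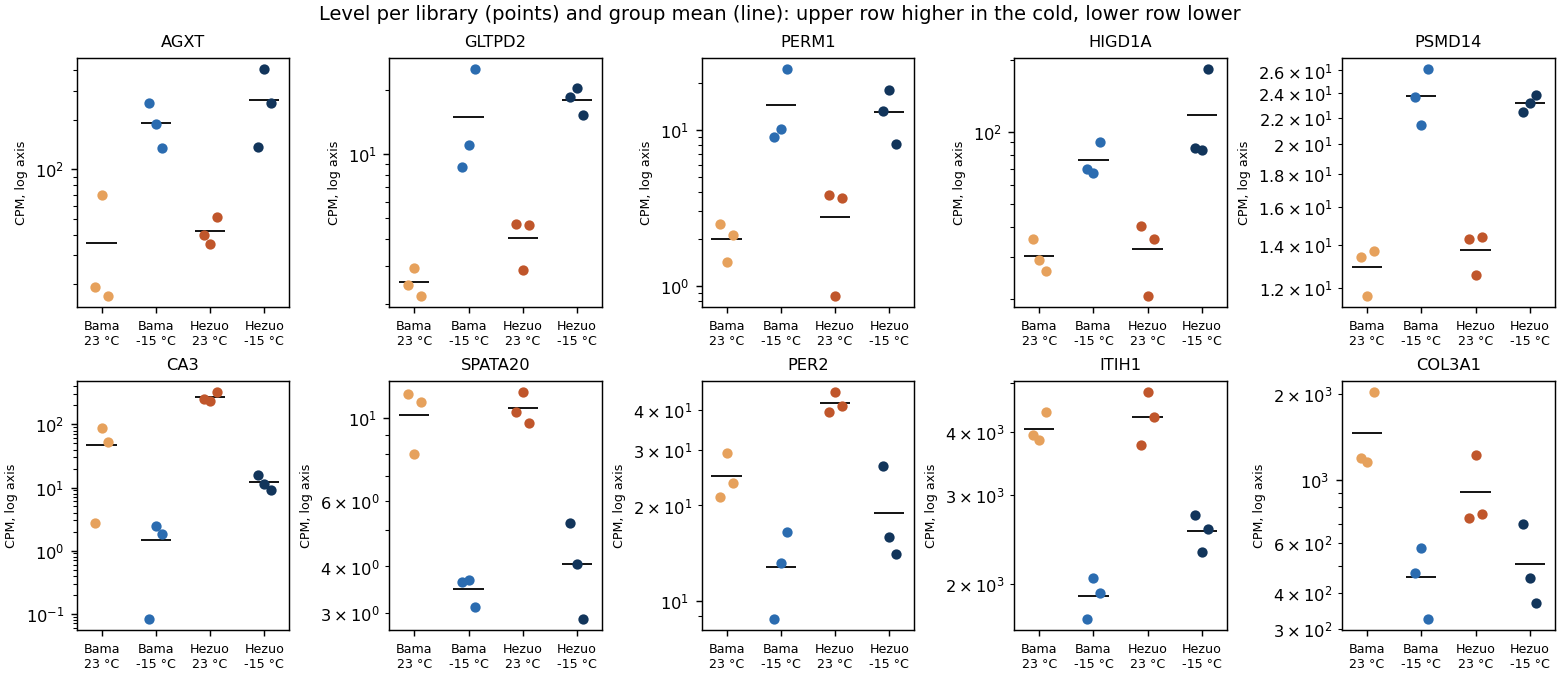
CPM on a log axis in each of the 12 libraries for 5 genes that rose (upper row) and 5 that fell (lower row); lines are group means. In each panel the cold points of a breed lie apart from its room temperature points, with the least distance in the Bama points of CA3.

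Genes of the tricarboxylic acid cycle and the respiratory chain that were called had all risen. Of 23 genes of the tricarboxylic acid cycle, pyruvate dehydrogenase and complex II, 5 rose and 0 fell, 19 were positive in both breeds, and the median log2 fold change was 0.27, against -0.01 over all genes tested and 1.88% called higher among all genes. FH, which hydrates fumarate, stood at 141, 223 and 133 CPM against 333, 333 and 330 CPM in Bama, and at 214, 142 and 176 CPM against 253, 291 and 244 CPM in Hezuo pigs. Its groups did not overlap, and it rose by 0.78 ± 0.15 (adjusted p = 0.0203, edgeR quasi-likelihood). SUCLA2 rose by 0.96, IDH3A by 0.46, PDHX by 0.42 and DLAT by 0.39. The count of 5 was 0 without Bama room temperature replicate 3 and 6 without Bama room temperature replicate 2, and the median stayed between 0.21 and 0.33 in all 12 leave-one-out fits.

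Of 21 regulators of mitochondrial genes, 2 rose, against 1.88% called higher among all genes. They were PERM1 and ESRRA, the estrogen-related receptor that PERM1 serves. ESRRA stood at 40.1, 39.3 and 37.6 CPM against 70.1, 55.0 and 67.5 CPM in Bama, and at 60.8, 40.8 and 47.4 CPM against 67.4, 69.1 and 87.4 CPM in Hezuo pigs. It was higher in every cold library of each breed, rose by 0.65 ± 0.11 (adjusted p = 0.0156, edgeR quasi-likelihood), and kept its call in all 12 leave-one-out fits. Their partner PPARGC1A was at 0.00 ± 0.33 and PPARA at 0.65 ± 0.20 (adjusted p = 0.0884), neither called.

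In the respiratory chain, 2 of 9 genes of complex III and cytochrome c rose (CYCS by 0.83 and UQCRC1 by 0.43), 2 of 11 of complex IV (COX7B by 0.44 and COX5A by 0.36), 1 of 38 of complex I (NDUFA4 by 0.34) and 0 of 15 of complex V by edgeR. In complex V 5 lay under 0.05 without adjustment, all higher. Complex IV was mixed, with a median of -0.04 and 6 of 11 genes negative. Under 0.05 without adjustment lay 2 of its genes higher and 2 lower. DESeq2 gave 4, 2, 7 and 3 rises in the same order. No gene of these 4 lists was called lower by either tool. Among all genes 1.88% were called higher by edgeR, so the 1 of 38 in complex I is near that share. The 13 genes encoded in mitochondrial DNA were all positive in both breeds, with a median of 0.35 and a range of 0.11 to 0.54, and 0 of them were called by edgeR, 3 having an unadjusted p below 0.05; DESeq2 called 0 as well. Of 67 mitochondrial ribosomal proteins, 3 rose (MRPL38, MRPS12 and MRPS5), against 1.88% called higher among all genes. Of 19 mitochondrial carriers, SLC25A33, which brings pyrimidine nucleotides into the organelle, rose by 1.80 ± 0.23, with 0.60 in Bama and 3.01 in Hezuo pigs. It stood at 2.89, 3.15 and 1.92 CPM against 3.13, 5.07 and 3.87 CPM in Bama, where the groups overlapped, and at 0.820, 1.13 and 0.430 CPM against 6.94, 5.56 and 6.82 CPM in Hezuo pigs, where they did not.

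Of 28 genes of fatty acid oxidation 1 rose, ETFDH, which hands electrons from fatty acid oxidation to the respiratory chain (0.49 ± 0.10), and 1 fell, DECR2 (-0.52). Among all genes 1.88% were called higher and 1.91% lower. SLC25A20, the carnitine carrier, and ACSL1, which activates fatty acids, were called on the mean with opposite signs in the breeds, at -0.08 and -0.02 in Bama and 1.22 and 2.36 in Hezuo pigs, so they are not among the 514. CPT1A, the rate-limiting carnitine transferase, was not called (0.83 ± 0.26, adjusted p = 0.0942), with -0.12 and 1.77. None of 20 targets of PPARA, 19 genes of fatty acid synthesis or 24 of cholesterol synthesis were called with the same sign in both breeds by edgeR; The counts at an unadjusted p under 0.05 were 7, 4 and 2, and those of DESeq2 were 1, 2 and 0.

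Several enzymes that break down amino acids rose, where 1.88% of all genes were called higher. Of 23 genes of tyrosine, tryptophan and lysine metabolism, a list that also holds the glutamate transporter SLC1A2, 5 rose and 0 fell by edgeR (6 and 1 by DESeq2), with a median of 0.26, at 0.43 in Bama and -0.04 in Hezuo pigs. HGD stood at 30.4, 91.6 and 28.6 CPM against 257, 328 and 455 CPM in Bama, and at 246, 147 and 209 CPM against 290, 440 and 403 CPM in Hezuo pigs. The cold libraries were higher without overlap in both, from a room temperature level that was higher in Hezuo pigs, and the gene rose by 1.85 ± 0.30 (adjusted p = 0.0135, edgeR quasi-likelihood). HPD, the enzyme before HGD in the same path, rose by 1.15 ± 0.17, with 1.94 in Bama and 0.36 in Hezuo pigs. In Bama it stood at 316, 488 and 366 CPM against 1500, 1190 and 1800 CPM. In Hezuo pigs 875, 630 and 607 CPM stood against 711, 1040 and 969 CPM, so the groups overlapped there. KMO rose by 0.81 and GCDH by 0.49. SLC1A2, a glutamate transporter of hepatocytes around the central vein, stood at 33.3, 45.5 and 16.1 CPM against 142, 150 and 252 CPM in Bama, and at 63.1, 38.0 and 70.2 CPM against 125, 139 and 160 CPM in Hezuo pigs. Its groups were apart in both breeds, and it rose by 1.91 ± 0.26.

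Of 31 genes of serine, glycine, glyoxylate, histidine and one-carbon metabolism, 6 rose and 1 fell. The shares among all genes were 1.88% called higher and 1.91% called lower. Beside AGXT, HAL, which starts histidine breakdown, rose by 1.86, GNMT by 1.17, CBS by 0.85, SDSL by 0.85 and AHCY by 0.65. In 4 of these the response was larger in Bama than in Hezuo pigs by over 3 times, with 2.26 against 0.08 for GNMT, 1.39 against 0.30 for CBS, 1.34 against 0.37 for SDSL and 1.01 against 0.29 for AHCY. HAO1, which makes the glyoxylate that AGXT removes, fell by 0.69 ± 0.12 (adjusted p = 0.017, edgeR quasi-likelihood). It stood at 97.1, 117 and 110 CPM against 49.0, 69.0 and 53.4 CPM in Bama, and at 132, 119 and 173 CPM against 105, 89.0 and 113 CPM in Hezuo pigs. So HAO1 and AGXT, which act in sequence on glyoxylate, moved in opposite directions, each without overlap in both breeds. In branched-chain breakdown 2 of 19 genes rose, MUT (0.79) and PCCA (0.61), which act in sequence on propionate. Of 19 genes of the urea cycle and glutamine metabolism 0 were called by edgeR, with a median of 0.81 in Bama and 0.07 in Hezuo pigs and 8 with an unadjusted p below 0.05; DESeq2 called 5 of them. The calls of these lists depended on single libraries: the 6 rises of the glycine and one-carbon list were 1 without Bama room temperature replicate 3 and 8 without Bama room temperature replicate 2, where AGXT stayed called throughout.

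The proteasome, which degrades proteins tagged with ubiquitin, had more genes called higher than any other of the 50 lists. Of 35 subunit and activator genes 13 rose and 0 fell, against 1.88% called higher among all genes. In both breeds 33 were positive, against 4134 of all 13532 genes. The median log2 fold change was 0.38, at 0.36 in Bama and 0.33 in Hezuo pigs. PSMD14, the subunit that removes ubiquitin from substrates, stood at 13.4, 11.7 and 13.7 CPM against 23.7, 21.4 and 26.1 CPM in Bama, and at 14.3, 12.6 and 14.4 CPM against 22.4, 23.2 and 23.8 CPM in Hezuo pigs. The libraries fell into 2 narrow bands by temperature, and it rose by 0.81 ± 0.09 (adjusted p = 0.00216, edgeR quasi-likelihood). It was also called with Y-linked RNA as a covariate. PSMD12 stood at 24, 25.2 and 22 CPM against 30.6, 29.9 and 35.2 CPM in Bama, and at 17.1, 15.6 and 23.1 CPM against 27.1, 30.8 and 31.8 CPM in Hezuo pigs. It too had no overlap, with a rise of 0.56 ± 0.11.

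By position in the particle, 6 of 11 non-ATPase subunits of the regulatory cap rose (PSMD1, PSMD4, PSMD7, PSMD11, PSMD12 and PSMD14), 2 of 6 subunits of the ATPase ring (PSMC1 and PSMC4), 2 of 7 alpha subunits of the core (PSMA3 and PSMA4), 2 of 7 beta subunits (PSMB2 and PSMB3) and 1 of 4 activators (PSME4). The medians were 0.44 in the cap, 0.38 in the ring, 0.45 and 0.25 in the alpha and beta rings and 0.11 among activators. The count of 13 ranged from 2 (without Bama room temperature replicate 3) to 13 over the leave-one-out fits, falling below 9 also without Bama cold 3, Hezuo room temperature 1 or 2, or Hezuo cold 2 or 3. The median stayed between 0.34 and 0.41. Without the 2 Bama cold libraries with Y-linked RNA it was 0.36, with 33 of 35 positive and 0 called.

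Genes of the cytosolic ribosome, which makes proteins, were lower. All 73 tested had a negative mean log2 fold change, 72 of them in both breeds, with a median of -0.32 and a range of -0.58 to -0.10. Only RPL11 (-0.45) and RPL27A (-0.52) were called, against 1.91% called lower among all genes. Under 0.05 without adjustment lay 49, and 21 were called by DESeq2. RPL27A stood at 532, 484 and 575 CPM against 412, 390 and 314 CPM in Bama, and at 558, 568 and 569 CPM against 486, 312 and 381 CPM in Hezuo pigs. Its groups did not overlap in either breed. The summed level of the list was 17700 to 22400 CPM at room temperature and 13800 to 18000 CPM in the cold in Bama, and 20500 to 22100 against 14100 to 19900 CPM in Hezuo pigs. Without the 2 Bama cold libraries with Y-linked RNA the median was -0.23 and 71 of 73 were negative. Ribosomal protein genes have many near-identical copies in the genome, and how reads were divided among them is not given in the sources used here.

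Secreted plasma proteins were lower as well. Of 30 such genes 9 fell and 0 rose, against 1.91% called lower among all genes, 25 were negative in both breeds, and the median was -0.37. ITIH1, a heavy chain of the inter-alpha-trypsin inhibitor, stood at 3950, 3850 and 4390 CPM against 1710, 2060 and 1920 CPM in Bama, and at 3770, 4790 and 4290 CPM against 2740, 2320 and 2570 CPM in Hezuo pigs. No library crossed over, and it fell by 0.93 ± 0.11 on the log2 scale (adjusted p = 0.0043, edgeR quasi-likelihood). Its neighbour in function, ITIH2, fell by 0.98 ± 0.14. PROC, the anticoagulant protein C, stood at 1140, 1230 and 1200 CPM against 408, 519 and 472 CPM in Bama, and at 1400, 1430 and 1290 CPM against 1190, 1020 and 1090 CPM in Hezuo pigs. It fell by 0.84 ± 0.10, with -1.35 in Bama and -0.32 in Hezuo pigs.

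The iron carrier TF fell by 1.04 ± 0.18, the protease inhibitor SERPINA1 by 0.85 ± 0.14, AHSG by 0.91, the thyroxine carrier TTR by 0.90, VTN by 0.65 and the vitamin D carrier GC by 0.51. TF and SERPINA1 each have a second, less abundant row in the table, which was not called, so reads may be divided between rows. Albumin itself was not called (ALB, -0.99 ± 0.37, adjusted p = 0.137). It stood at 78200, 88600 and 78500 CPM against 12800, 26900 and 64800 CPM in Bama, and at 108000, 130000 and 130000 CPM against 106000, 31900 and 81200 CPM in Hezuo pigs. All 6 cold libraries were below the room temperature ones of their breed, with a wide spread among the cold ones. Over the leave-one-out fits the list had between 5 and 9 falls and a median between -0.42 and -0.33. The acute-phase proteins did not share this direction. Of 14 such genes 11 were positive, with a median of 0.66, at 0.19 in Bama and 0.89 in Hezuo pigs. By edgeR 1 of them fell, ORM1 (-1.28 ± 0.31), which kept its call in 2 of 12 leave-one-out fits, and 0 rose. Under 0.05 without adjustment lay 6 higher and 1 lower, and DESeq2 gave 2 and 1. Of 19 complement genes MASP1 fell by 0.63 and 0 rose by edgeR or DESeq2, with a median of -0.18.

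**Figure D3:**
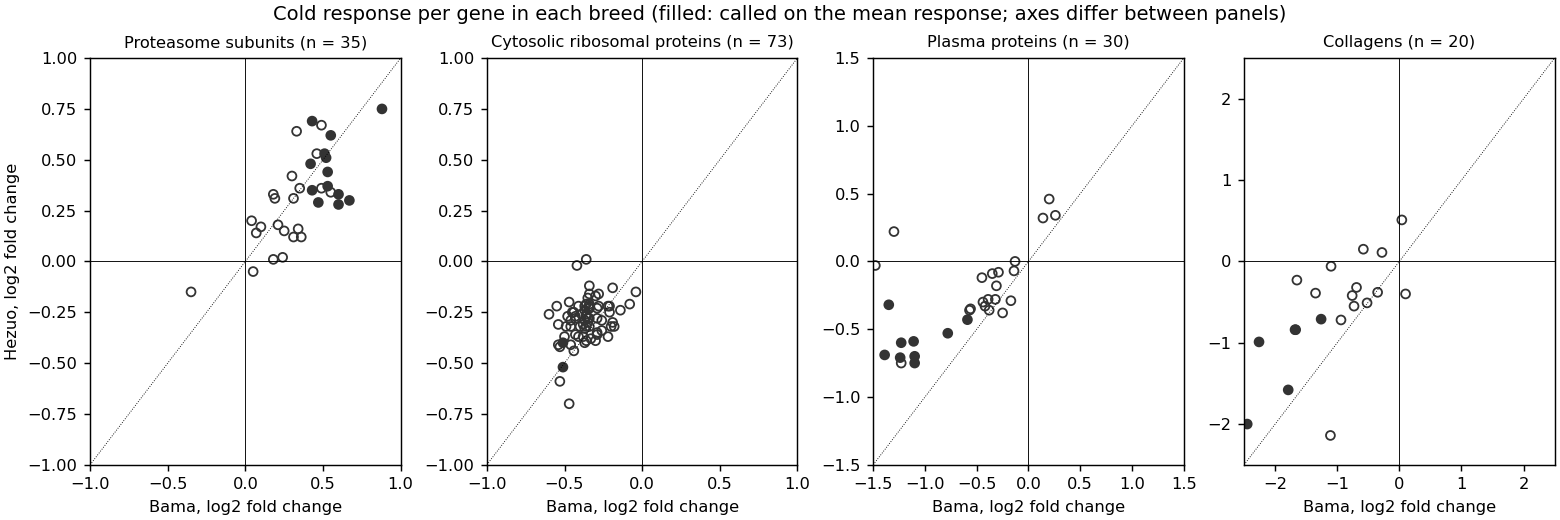
Log2 fold change in the cold in Bama (horizontal) and Hezuo pigs (vertical) for each tested gene of 4 lists; filled points were called on the mean response. Proteasome genes lie at the upper right apart from 2, all ribosomal protein genes but 1 lie in the lower left, and plasma proteins and collagens reach further down in Bama than in Hezuo pigs.

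Genes of the extracellular matrix were lower. Of 20 collagen genes 6 fell and 0 rose, against 1.91% called lower among all genes. In both breeds 16 were negative, against 4552 of all 13532 genes. The median was -0.73, at -1.02 in Bama and -0.47 in Hezuo pigs. COL3A1, a fibrillar collagen, stood at 1190, 1150 and 2020 CPM against 471, 575 and 326 CPM in Bama, and at 734, 1220 and 761 CPM against 699, 452 and 369 CPM in Hezuo pigs. The groups did not overlap, narrowly so in Hezuo pigs, and it fell by 1.25 ± 0.23 on the log2 scale (adjusted p = 0.0194, edgeR quasi-likelihood). COL1A1 fell by 1.63, COL1A2 by 1.26, COL6A6 by 2.23, COL8A1 by 1.68 and COL27A1 by 0.99. In COL1A1 the Hezuo libraries overlapped, at 285, 597 and 313 CPM against 290, 171 and 140 CPM. Of 51 other matrix and remodelling genes 6 fell and 0 rose, the proteoglycans FMOD (-1.28), OGN (-1.24) and DCN (-1.21), LAMB1 (-0.63), FBN1 (-0.60) and FN1 (-0.59), with a median of -0.42.

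Matrix RNA comes largely from stellate and other mesenchymal cells, and in bulk tissue fewer such cells and less RNA per cell cannot be told apart. Of 19 tested markers of those cells 1 fell, RELN (-0.48), against 1.91% called lower among all genes, and their median was -0.22. The summed level of the 20 markers found was 941 to 1250 CPM at room temperature and 867 to 1050 CPM in the cold in Bama, and 1020 to 1320 against 899 to 1020 CPM in Hezuo pigs. The summed level of the collagens was 3860 to 6380 against 2090 to 2570 CPM, and 3220 to 4510 against 2660 to 3210 CPM. No marker of either list was at 0 in every library, and the part of cell number in the matrix genes was not tested. The collagen falls were 1 without Hezuo room temperature replicate 2 or without Hezuo cold replicate 2 or 3, 2 without Bama room temperature 3 or Bama cold 1 or 3, and 10 without Bama cold 2; the median stayed between -0.81 and -0.60, and COL3A1 was called throughout.

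Markers of other cell types were mostly not called in the same direction in both breeds, where 1.88% of all genes were called higher and 1.91% lower. Of 17 macrophage markers VSIG4, a complement receptor of Kupffer cells, rose by 0.82 ± 0.16, and the median of the list was 0.42, with summed levels of 4530 to 5570 against 5400 to 7740 CPM in Bama and 3820 to 4990 against 4820 to 6460 CPM in Hezuo pigs. None of 9 neutrophil, 18 T and NK cell, 10 B and plasma cell, 18 sinusoidal endothelial, 10 bile duct and 8 erythroid markers were called by edgeR, and at an unadjusted p below 0.05 there were 3, 0, 1, 0, 3 and 0, with 1, 0, 0, 0, 2 and 0 called by DESeq2. Erythroid RNA varied widely, from 240 to 21000 CPM summed. Bile duct markers summed to 112 to 148 CPM at room temperature and 138 to 155 CPM in the cold in Bama, and to 157 to 169 against 184 to 409 CPM in Hezuo pigs, while the median of the single genes was -0.14, with 6 of 10 negative.

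Of 8 repressors of the circadian clock 2 fell, PER2 and PER3, with a median of -0.37. Of 3 activators tested CLOCK rose, and their median was -0.23 in Bama and 0.58 in Hezuo pigs. Among all genes 1.91% were called lower and 1.88% higher. PER2 stood at 21.3, 29.2 and 23.6 CPM against 8.80, 13.2 and 16.5 CPM in Bama, and at 39.5, 45.4 and 41.1 CPM against 26.7, 15.9 and 14.1 CPM in Hezuo pigs. The cold libraries were lower without overlap in both, and PER2 fell by 1.05 ± 0.18 (adjusted p = 0.0156, edgeR quasi-likelihood). PER3 fell by 0.87 ± 0.15, with -0.54 in Bama and -1.20 in Hezuo pigs, and CLOCK rose by 0.37 ± 0.09, with 0.16 and 0.58. PER2 and PER3 kept their calls in all 12 leave-one-out fits and CLOCK in 2. PER1 (0.19 ± 0.23), BMAL1 (listed as ARNTL, 0.22 ± 0.20), NR1D1 (0.15 ± 0.51) and the output gene DBP (-0.82 ± 0.33) were not called. The hour at which each pig was sampled is not in the labels, so a difference in hour and a difference in the clock cannot be told apart.

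Among hormone axes, 3 of 15 genes of growth hormone and insulin-like growth factor signalling fell and 0 rose by edgeR. The share called lower among all genes was 1.91%. Under 0.05 without adjustment lay 9 lower and 2 higher, and DESeq2 gave 4 and 2. IGFALS, which holds circulating growth factor in a stable complex, stood at 65.7, 77.9 and 51.8 CPM against 14.0, 12.9 and 20.9 CPM in Bama, and at 155, 138 and 185 CPM against 100, 99.2 and 78.8 CPM in Hezuo pigs. Neither breed overlapped, and it fell by 1.40 ± 0.15 on the log2 scale (adjusted p = 0.00216, edgeR quasi-likelihood), with -2.03 in Bama and -0.78 in Hezuo pigs. It was among the 5 genes called without the 2 Bama cold libraries with Y-linked RNA, at -1.56. The binding proteins IGFBP2 and IGFBP3 fell by 0.70 and 0.61 and kept their calls in 2 and 3 of 12 leave-one-out fits. IGF1 itself was not called (-0.23 ± 0.14).

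Of 19 targets of glucocorticoids 2 rose, against 1.88% called higher among all genes. They were FKBP5, a chaperone that damps the receptor, and KLF9, a transcription factor that also answers thyroid hormone. FKBP5 stood at 36.1, 35.7 and 41.4 CPM against 164, 82.6 and 155 CPM in Bama, and at 50.5, 31.7 and 37.5 CPM against 49.5, 87.4 and 118 CPM in Hezuo pigs. Hezuo cold replicate 1 lay inside the room temperature range of its breed. FKBP5 rose by 1.46 ± 0.23 (adjusted p = 0.0125, edgeR quasi-likelihood), and by 1.11 without the 2 Bama cold libraries with Y-linked RNA. KLF9 rose by 0.70 ± 0.16 and the median of the list was 0.17. Of 11 thyroid genes KLF9 rose and TTR fell, and DIO1, which activates thyroxine, was not called (0.45 ± 0.22).

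In bile acid metabolism 2 of 17 genes rose and 1 fell, against 1.88% called higher and 1.91% called lower among all genes. Beside CYP8B1, ABCB4, the exporter of phospholipid into bile, rose by 1.29 ± 0.26, with 0.63 in Bama, where libraries overlapped, and 1.94 in Hezuo pigs. AKR1D1, which reduces the sterol ring on the way to bile acids, fell by 0.55 ± 0.14 (adjusted p = 0.0456, edgeR quasi-likelihood) and kept its call in 1 of 12 leave-one-out fits. CYP7A1, which starts the main path, was not called (0.62 ± 0.75), with Hezuo cold libraries at 6.94, 140 and 3.80 CPM. Of 29 genes of glucose and glycogen metabolism PHKA2, a subunit of the kinase that starts glycogen breakdown, fell by 0.86 ± 0.14, with -1.02 in Bama and -0.69 in Hezuo pigs. It was the only call of that list, against 1.91% called lower among all genes. PCK1 (-0.10 ± 0.45) and G6PC (-0.49 ± 0.41), the key enzymes of glucose output, were not called.

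Other lists gave 1 to 3 calls each, against 1.88% called higher and 1.91% called lower among all genes. A single call therefore says little about its list. The liver factor HNF4A rose by 0.98 ± 0.24 (1 of 23 hepatocyte regulators), the Nrf2 targets GCLM and TXNRD1 by 0.81 and 0.68 (2 of 21 antioxidant genes), and the RNA sensor DDX58 by 0.80 (1 of 30 interferon-response genes). HNF4A and DDX58 were at 1.28 and 1.27 in Bama and at 0.68 and 0.34 in Hezuo pigs. DDX58 stood at 282, 130 and 120 CPM in the Bama cold libraries. HNF4A, GCLM, TXNRD1 and DDX58 kept their calls in 2, 5, 4 and 3 of 12 leave-one-out fits. WEE1, which holds back entry into mitosis, fell by 1.16 ± 0.17 and kept its call in all 12 leave-one-out fits (1 of 29 cell cycle genes). By zone of the lobule, SLC1A2 and the WNT target NKD1 (1.10 ± 0.19) rose among 15 pericentral genes, and HAL and SDSL rose and CDH1 (-0.85) fell among 16 periportal genes. In HAL, SDSL and CDH1 the Hezuo libraries overlapped, and the calls held in 4, 3 and 4 of 12 leave-one-out fits.

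Genes often named in cold responses were mostly not called. The cold-inducible RNA-binding proteins CIRBP (-0.17 ± 0.15, adjusted p = 0.524) and RBM3 (-0.82 ± 0.23, adjusted p = 0.0704, edgeR quasi-likelihood) were both below 0. The fasting hormone FGF21 was at -1.57 ± 0.96 and the uncoupling protein UCP2 at -0.16 ± 0.25. Of 22 RNA-binding cold-shock and heat-shock genes 17 were positive, with a median of 0.38, and 0 were called by edgeR, with 12 at an unadjusted p below 0.05 and 6 called by DESeq2. Of 27 genes of the endoplasmic reticulum stress response 0 were called by edgeR, with 1 at an unadjusted p below 0.05 and 0 called by DESeq2.

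**Figure D4:**
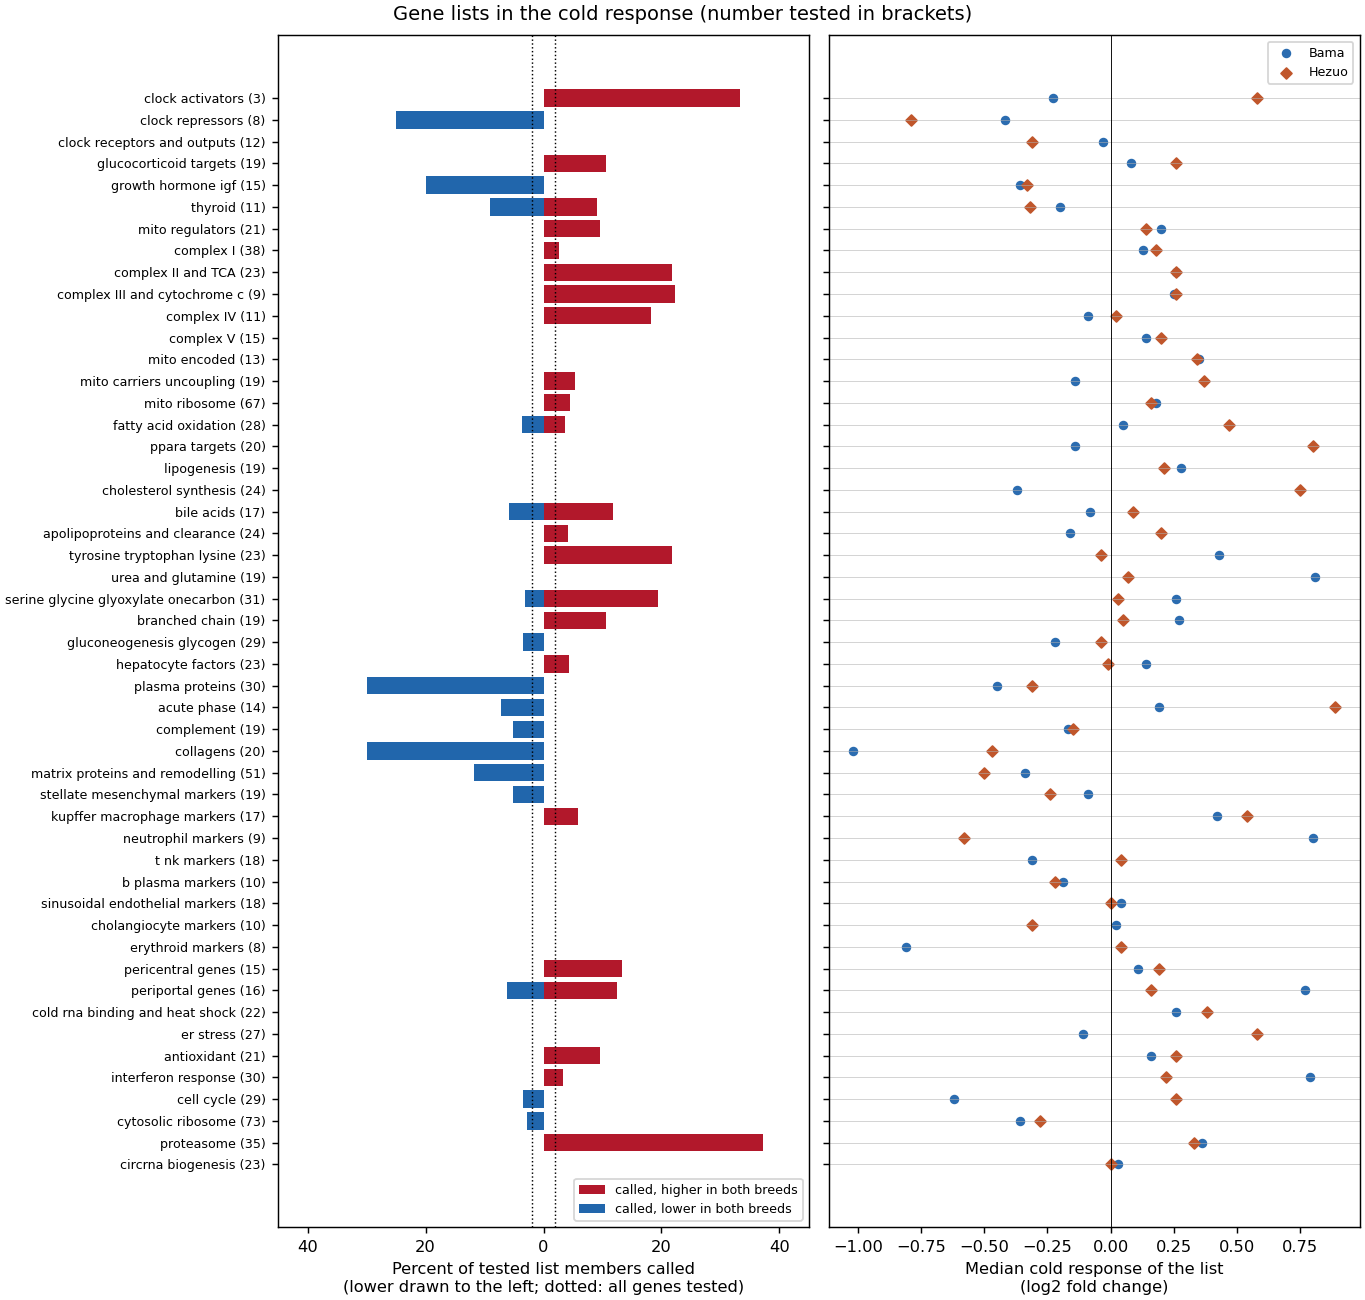
For each gene list, the percent of tested members called higher (right) or lower (left) on the mean response with the same sign in both breeds, with dotted lines at the 1.88% and 1.91% of all genes tested, and the list's median log2 fold change in each breed. Proteasome, plasma protein and collagen lists have the longest bars among lists with 10 or more genes, and their medians have the same sign in both breeds.

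Circular RNAs, closed loops made when a later splice site is joined to an earlier one, were few in the common response. Of 9032 tested, 19 (0.21%) were called on the mean and 17 (0.188%) had the same sign in both breeds, 11 higher (0.122%) and 6 lower (0.0664%). Levels are back-splice reads per 100000 of the library, scaled for the composition of its circRNAs. Over all circRNAs the 2 responses correlated at r = 0.04. In 6 of the 17 the cold and room temperature libraries did not overlap in either breed, against 56 of all 9032 (0.62%). The 17 were chosen on the mean response of these same libraries, which favours such separation.

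The circRNA of AKR1D1 on chromosome 18 (11436848 to 11447863, minus strand, 486 bases of annotated exons, in the coordinates of the deposited table) was the only one called in both breeds at once (1 of 9032, 0.0111%; adjusted p = 0.0106, edgeR quasi-likelihood). It stood at 394, 390 and 408 per 100000 against 209, 177 and 133 in Bama, and at 406, 344 and 431 against 184, 110 and 204 in Hezuo pigs. The room temperature groups of both breeds were level and so were the cold ones. It fell by 1.22 ± 0.17 on the log2 scale (adjusted p = 1.33e-08), with -1.20 in Bama and -1.24 in Hezuo pigs, and by 1.19 without the 2 Bama cold libraries with Y-linked RNA. The gene AKR1D1 itself was at -0.82 in Bama and -0.29 in Hezuo pigs.

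Other circRNAs that fell came from CYP3A39 (-2.52), PECR (-1.62), CNTRL (-1.42) and 2 hosts without a symbol (-1.92 and -0.94). Those of PECR and CNTRL fell mainly in Bama (-2.64 and -2.30), with -0.59 and -0.55 in Hezuo pigs. That of CYP3A39 fell more in Hezuo (-3.82) than in Bama pigs (-1.23). Libraries overlapped in both breeds for the circRNAs of CYP3A39 and CNTRL and for that at -0.94. The circRNA of CYP3A39 had 130 reads over all libraries, 116 per 100000 in 1 Hezuo room temperature library and at most 38.6 in any other. PECR itself was at 0.36 and CNTRL at -0.22, neither called, so these 2 circles moved without a call in the host.

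Of those that rose, 2 came from NDFIP2, an adaptor of ubiquitin ligases, and share the same start on chromosome 11 (51531489). The longer one, to 51554792, stood at 54.2, 69.8 and 85.5 against 155, 205 and 566 in Bama and at 51.0, 55.9 and 47.8 against 123, 110 and 92.0 in Hezuo pigs, without overlap. It rose by 1.60 ± 0.22 (adjusted p = 1.54e-09, edgeR quasi-likelihood). The shorter one, to 51540684, rose by 1.05 ± 0.17, with 1.84 in Bama and 0.27 in Hezuo pigs. NDFIP2 as a gene was at 0.62 and not called (adjusted p = 0.0879).

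The circRNA of ITIH4, an acute-phase relative of ITIH1 (chromosome 13, 34928536 to 34929490), stood at 15.5, 31.2 and 5.52 against 84.1, 67.7 and 56.2 in Bama and at 15.7, 10.7 and 2.08 against 15.3, 105 and 28 in Hezuo pigs, with overlap in the latter. It rose by 2.17 ± 0.35. That of ALAS1, the first enzyme of heme synthesis, rose by 2.08 ± 0.51, and the gene rose by 1.33 (adjusted p = 0.0453, edgeR quasi-likelihood). Those of ARIH1 (1.01), FOXP1 (1.71) and HS2ST1 (2.86) rose while their genes lay between -0.14 and 0.06. That of HS2ST1 had 86 reads over all libraries, and its libraries overlapped in both breeds. Another 3 circRNAs without a host symbol rose from neighbouring positions on the minus strand of chromosome 6, between 14924769 and 14937268. That from 14926250 to 14926563 rose by 2.00 ± 0.32, with overlap in Bama pigs (22.5 in cold replicate 3, 27.6 in room temperature replicate 2). That from 14931077 to 14937268 rose by 2.59 ± 0.55, with 72.3 per 100000 in 1 Hezuo cold library and 6.57 and 0 in the others. That from 14924769 to 14926563 was at 0 in 5 of 6 room temperature libraries and at 1.96 in the other, against 12.7, 14.6 and 3.75 in Bama cold and 4.38, 46.6 and 18 in Hezuo cold libraries. By the RefSeq annotation of Sscrofa11.1 all 3 overlap LOC102158108, with IST1, DHODH and the haptoglobin gene HP as neighbours; the build of the deposited coordinates is not given in the sources used here. The remaining circRNA that was higher came from chromosome Y and followed the Y-linked RNA.

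**Figure D5:**
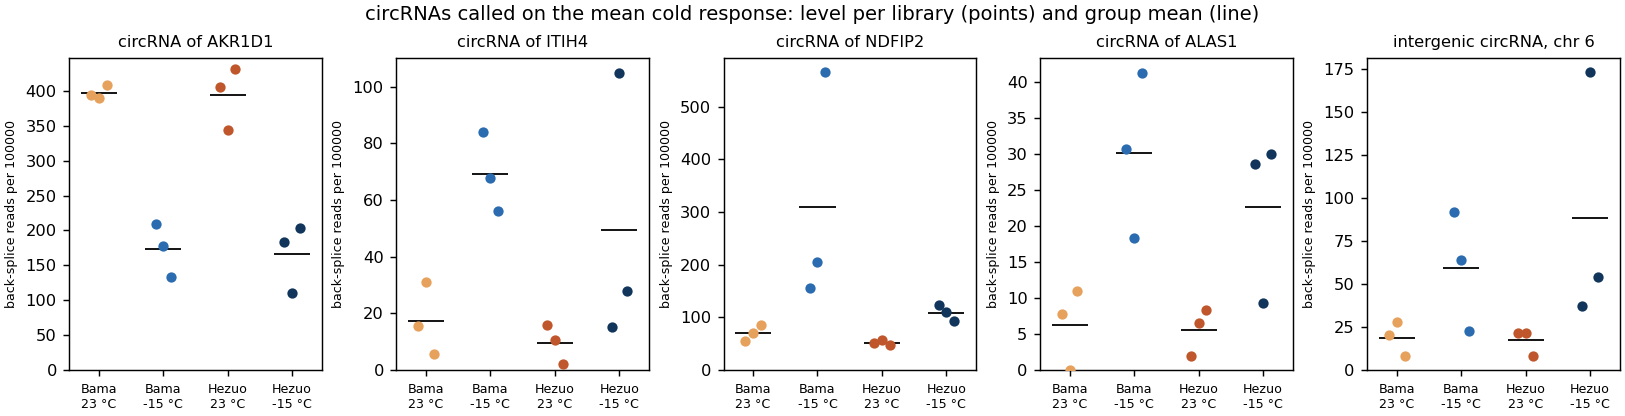
Back-splice reads per 100000 in each library for 5 called circRNAs; lines are group means and axes start at 0. The circRNA of AKR1D1 falls into 2 bands, near 400 at room temperature and at 209 or less in the cold, while the other 4 are higher in most cold libraries.

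Circles of called genes tended to share the direction of their gene. Among circRNAs with at least 50 reads, those of 32 genes called higher had a median of 0.34 and 41 of 54 were positive, and those of 23 genes called lower had a median of -0.72 and 42 of 50 were negative, against a median of -0.07 over all 2087. The sizes of the 2 responses, of circle and gene, correlated at r = 0.55 for genes called higher and 0.01 for genes called lower. Over all 2087 circRNAs r was 0.38. Some genes gave several circles, so circles are not independent replicates. Gene and circle were read in the same libraries, so these values describe these libraries. Total back-splice reads relative to gene counts (CPM) lay between 1657 and 2600 and differed by -0.12 on the log2 scale (exact permutation within breeds, two-sided p = 0.2, smallest possible 0.005). The result depended on the scale, with -0.18 (p = 0.035) when albumin was left out of the gene counts and -0.22 (p = 0.01) after scaling them for composition, by the same exact permutation test. Without the 2 Bama cold libraries with Y-linked RNA it was -0.04. The 10 most abundant circRNAs, from NECTIN3, TUT7, HIBADH, PFKFB1, GSTO1, ZMYND11, ITGA9, PSD3, PICALM and TRPM7, were not called, and the largest difference among them, in GSTO1 (5.03 ± 1.47), came with 0, 800 and 1420 per 100000 in the Hezuo cold libraries.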

How the data were processed

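Liver RNA of 12 pigs was depleted of ribosomal RNA and sequenced from libraries that mark strand, per the labels. The authors deposited estimated counts and FPKM per gene, and back-splice counts and RPM per circRNA, per the file headers. Reads were handled with fastp per the submitters' processing notes; aligner, counting program, circRNA caller, genome build and use of strand were not given in the labels or headers, so overlapping and antisense genes cannot be told apart. FPKM served only the tissue check, and the deposited RPM were not used in tests.

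Estimated counts (9.48% of nonzero values fractional) were rounded. Of 21169 gene rows, 4634 had no symbol in the file or the reference name tables. Genes were filtered with filterByExpr (minimum count 10, minimum total 15), scaled by TMM and fitted with edgeR 4.0.16 (robust quasi-likelihood, R 4.3.3) in 1 model of 4 groups with 8 residual degrees of freedom; p-values were Benjamini-Hochberg adjusted and called below 0.05. CircRNAs needed 2 counts in 3 libraries and 10 in all. The contrast was the mean of both within-breed differences. For genes, p-values measure the spread between pigs, shared in part across genes. For called circRNAs such as those of AKR1D1 and CYP3A39 the test used a spread pooled over circRNAs. Their p-values do not measure the spread of that circRNA alone between pigs. DESeq2 1.42.0, other scaling and filters, a Y-linked RNA covariate, a replicate block and leaving out libraries were alternatives. The fits were tested on simulated data.

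Members and the 50 gene lists (1049 genes tested) were chosen with earlier results of these data known. Named are the 15 largest rises and falls with a symbol, a group mean of at least 1 CPM and no overlap in either breed, up to 6 called genes per list, a fixed set of cold, clock and liver genes, up to 8 circRNAs per direction and the 10 most abundant. Additional called genes were named after their values were seen. Some genes covered by this rule are not reported here. A symbol on several rows was represented by the row with the most counts.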

Additional observations from a re-analysis of the deposited data

Results flagged for a closer look

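The cold response of 2 circRNAs that moved the same way in both breeds differed in size between the breeds by a test of the difference itself (edgeR quasi-likelihood, Benjamini-Hochberg adjusted). For the shorter circRNA of NDFIP2 (novel_circ_019821) the Hezuo minus the Bama response was -1.57 ± 0.33 on the log2 scale (adjusted p = 0.00613). It stood at 143, 175 and 145 per 100000 against 359, 523 and 765 in Bama pigs, and at 294, 309 and 254 against 298, 338 and 398 in Hezuo pigs, where the groups overlapped.

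For a circRNA of chromosome Y (novel_circ_021223) the difference was -5.73 ± 1.35 (adjusted p = 0.0339), a fitted value against a group with no reads. It was at 0 in all Bama room temperature libraries and in Bama cold replicate 2, at 35.7 and 39.4 per 100000 in Bama cold replicates 1 and 3, at 21.6, 19.3 and 14.6 in Hezuo room temperature and at 30.7, 39.6 and 38.0 in Hezuo cold libraries. Its reads in Bama pigs lay in the same 2 libraries as the RNA of DDX3Y.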

How the results depend on the processing

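The number of genes called on the mean response depended strongly on the treatment of Y-linked RNA: 526 (514 of the same sign in both breeds) became 6 (6) with that RNA as a covariate and 5 (5) without the 2 Bama cold libraries that hold it. DESeq2 called 1469 (1432), and 22 genes in both breeds at once, where every edgeR fit gave 0. Leaving out 1 library gave 130 to 606 called genes, and 128 to 586 of the same sign, with the lowest count without Bama room temperature replicate 3. Deviations of same-numbered pigs correlated at r from -0.198 to 0.148 over all pairs of groups. Between the 2 Bama groups r was 0.138, 0.148 and 0.022, against -0.155 to 0.008 for other numbers. Between the 2 Hezuo groups it was -0.083, 0.079 and -0.014, against -0.089 to 0.111. With 3 pigs per group these values cannot decide whether the number marks a pairing. With it as a block 361 genes were called, 357 of the same sign. Of 126 called single values, 92 kept their call under that block, 120 under DESeq2, 52 to 109 when 1 library was left out, 14 with the Y covariate and 11 without the 2 Bama cold libraries, with 1 reversed (DDX3Y) in each of the last 2.

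The 19 called circRNAs became 12 with the Y covariate, 11 without the 2 libraries and 29 when scaled to the gene table. The circRNA total differed by -0.18 without albumin and by -0.22 with composition scaling. These signs turned: PPARGC1A to 0.00 (other size factors, no filter, DESeq2), 0.07 (block) and between -0.18 and 0.53 without 1 library; PCK1 to 0.14 (both Y settings), 0.11 (block), and -0.33 to 0.16; DDX3Y to -1.69 and -1.68 (Y settings); NR1D1 to -0.04 (block), and -0.30 to 0.42. Without 1 library UCP2 ranged from -0.32 to 0.03 and CYP7A1 from -0.99 to 0.90. The circRNA of PICALM was at 0.03 (other size factors, DESeq2), 0.02 (20 counts) and -0.09 to 0.07, that of ZMYND11 at -0.06 and that of HIBADH at -0.14 (gene-table scaling), the last also -0.04 to 0.16. The cause was not tested.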

Other observations

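Some further genes of the common response, chosen after their values were seen, belong to none of the gene lists. These hormone receptors fell by edgeR's quasi-likelihood test: the estrogen receptor ESR1 (-0.88, adjusted p = 0.0128), the mineralocorticoid receptor NR3C2 (-0.75, 0.0156) and the prolactin receptor PRLR (-2.04, 0.0466). The sex of the pigs is not in the labels, and its part in these values was not tested.

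The acyltransferase genes CROT and CRAT rose by 1.38 and 0.49, as did the lipid droplet protein PLIN5 (0.74), the lactate dehydrogenase LDHA (0.44) and the spermidine synthase SRM (0.92). The coagulation factors F7 (-0.86) and F12 (-0.56) fell, beside PROC. The mucins MUC5AC (3.62) and MUC5B (2.30) were also called higher.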
